A study of Ovis aries with 24 samples.

Results

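Transcripts of class II antigen genes and of T cell genes were followed through sheep skeletal muscle in 4 genes, BOLA-DRA, BOLA-DQB1, CD3G and CD8A. The members were the probe sets whose only gene symbol in the platform's annotation table was exactly 1 of these names. They were 4 of the 9155 genes that had a probe set of their own symbol on a bovine Affymetrix GeneChip, and were read by 8 of its 24128 probe sets. BOLA-DQB1 had 5 probe sets and each of the other genes had 1. A filter on dim signal, which kept 15664 probe sets for testing, passed 6 of the 8. The genes were picked with differences on these same arrays already known, so every value of a member is given as a description, with no test.

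Class II antigens are cell-surface pairs of an alpha and a beta chain that show peptides from engulfed protein to helper T cells. They are made mainly by dendritic cells, macrophages and B cells, and interferon gamma can induce them in other cells. Their genes lie together in the major histocompatibility complex and differ widely between animals, and in ruminants the DQ genes can be duplicated. BOLA names are those of cattle genes: BOLA-DRA encodes the alpha chain of the DR antigen and BOLA-DQB1 the beta chain of the DQ antigen. CD3G encodes a chain of the CD3 complex, which passes on the signal of the T cell receptor, and CD8A encodes a chain of the co-receptor by which cytotoxic T cells recognise class I antigens. Resting muscle fibres are known to make little class II antigen, whereas resident macrophages and dendritic cells lie between the fibres.

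RNA of cross-bred sheep (Dorset, Suffolk and Rambouillet) was measured on 24 arrays, 2 technical arrays for each of 12 groups. At T12, 11 to 12 weeks of age, the groups were supraspinatus (SS, a shoulder muscle) of CN and NN lambs, the muscle coded SM and semitendinosus (ST, a hind limb muscle) of NN lambs, and longissimus dorsi (LD, a back muscle) of CN, CC, NC and NN lambs. The T0 groups were LD of the same 4 genotypes, taken no later than 5 days after birth. CN is the paternal heterozygote at the callipyge locus and, of the 4 genotypes, the one that carries the trait of enlarged muscle. NC is the maternal heterozygote, CC the homozygote for the callipyge allele and NN the wild type. The protocol speaks of 8 male lambs of NN and callipyge type (4 of each), whereas 4 genotypes were arrayed. It is therefore unknown how many animals stand behind an array, and a difference of genotype and one of individual animals or pools cannot be told apart. The labels name SM inconsistently, so its code is kept, and they do not say whether the muscles came from the same lambs.

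The values were linear signal on a scale set by the submitters, with array medians of 47.4 to 59.7. All 16 muscle fibre genes on a marker list, with MYH1, CKM and TNNC2 as the brightest, lay above the array's own median on every array. In muscle RNA, fewer cells of a type and less RNA per cell cannot be told apart. The probes were designed on cattle sequence, and how far each one matches the sheep transcript was not tested.

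BOLA-DRA was bright at T12 in every genotype and muscle and near the array median at T0. In LD at T12 its signal was 464.5 and 215.0 in CN, 429.1 and 384.7 in CC, 345.4 and 297.8 in NC, and 549.3 and 425.1 in NN. In LD at T0 it was 34.2 and 55.5 in CN, 87.2 and 89.5 in CC, 50.3 and 92.1 in NC, and 64.2 and 69.8 in NN. Every T12 array lay above every T0 array, the lowest T12 array being the second of CN. The log2 difference, T12 minus T0, was 2.86 in CN, 2.20 in CC, 2.24 in NC and 2.85 in NN. Over CC, NC and NN, which served as 3 values per age, it was 2.43 ± 0.19 (SE), or 5.39-fold. Among all probe sets of the array, BOLA-DRA lay between percentiles 79.1 and 89.7 on LD arrays at T12 and between percentiles 42.4 and 64.0 at T0.

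BOLA-DQB1 was read by 5 probe sets that did not behave alike, and the brightest, an s type probe set by its suffix, is of a kind that can bind transcripts of more than 1 related gene. Its LD signal at T12 was 787.9 and 629.7 in CN, 1260.4 and 1262.5 in CC, 536.3 and 524.7 in NC, and 533.3 and 422.9 in NN. At T0 it was 84.9 and 92.0 in CN, 289.6 and 437.7 in CC, 87.4 and 168.3 in NC, and 46.1 and 53.6 in NN. Within each genotype both T12 arrays lay above both T0 arrays, and across genotypes the ages overlapped only because a CC array at T0 (437.7) exceeded an NN array at T12 (422.9). The log2 difference, T12 minus T0, was 2.99 in CN, 1.83 in CC, 2.13 in NC and 3.26 in NN, and 2.40 ± 0.58 (SE), or 5.29-fold, over CC, NC and NN.

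The second brightest BOLA-DQB1 probe set had a lower signal and no high CC value. In LD at T12 it read 57.0 and 66.4 in CN, 91.1 and 89.4 in CC, 78.9 and 65.8 in NC, and 60.8 and 109.1 in NN. In LD at T0 it read 25.0 and 28.9 in CN, 15.5 and 28.1 in CC, 8.3 and 50.6 in NC, and 8.3 and 19.5 in NN. All LD arrays at T12 lay above all those at T0, the closest being 57.0 in CN at T12 and 50.6 in NC at T0. The log2 difference over CC, NC and NN was 2.20 ± 0.30 (SE), or 4.60-fold. The SD between technical arrays was 0.66 on the log2 scale for this probe set, against 0.27 for the brightest one and 0.37 for BOLA-DRA. The other 3 probe sets of BOLA-DQB1 were dim. The brightest of them ranged from 7.0 to 69.3 on LD arrays at T12 and from 3.3 to 33.0 at T0, and it exceeded the array median on 1 T12 array. The other two, at 0.4 to 51.9 and at 0.7 to 44.0, stayed under the array median on all 24 arrays and did not pass the filter.

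**Figure D1:**
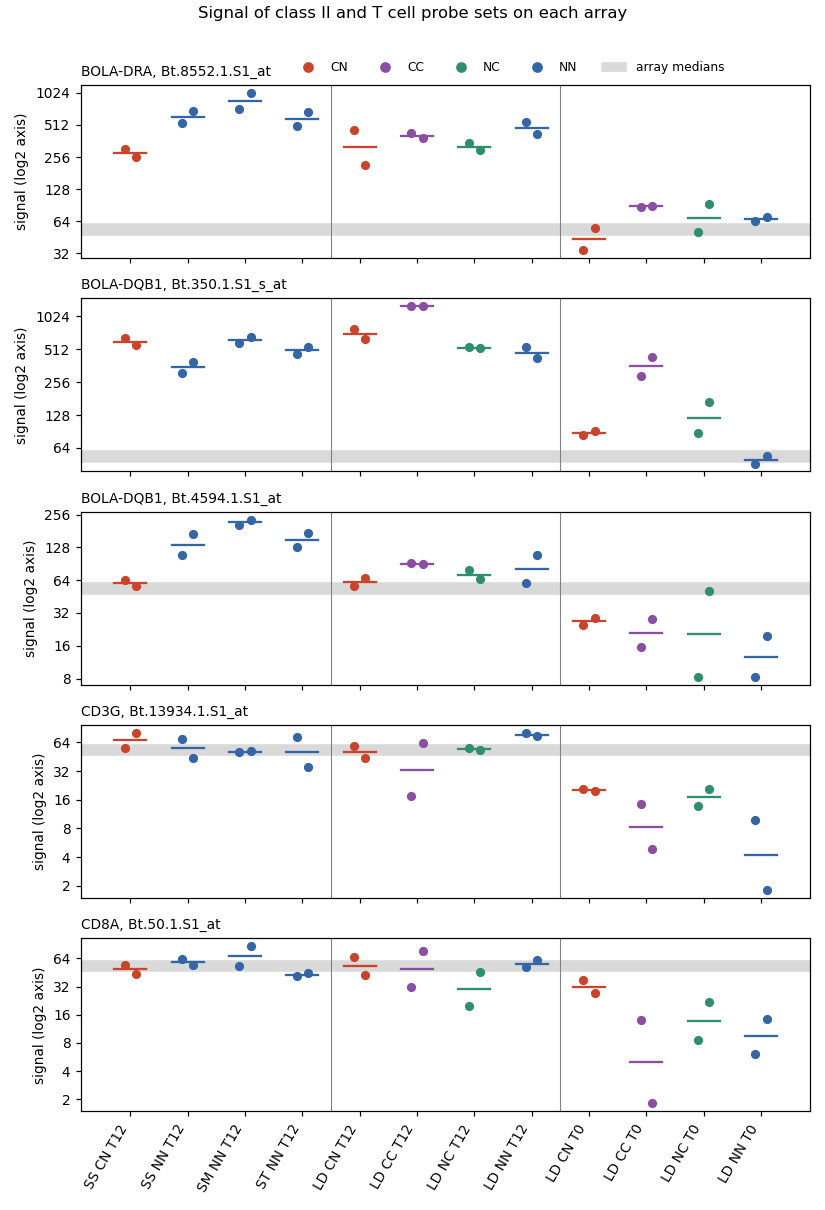
Signal of BOLA-DRA, of the brightest and second brightest BOLA-DQB1 probe sets, of CD3G and of CD8A on each of the 24 arrays, on a log2 axis, with 1 point per array, a line at the geometric mean of each group's 2 arrays and a grey band for the range of the array medians (47.4 to 59.7). BOLA-DRA lies between 215.0 and 1020.9 on the 16 T12 arrays and between 34.2 and 92.1 on the 8 T0 arrays, the brightest BOLA-DQB1 probe set is highest in CC at both ages, and CD3G and CD8A lie near or under the band.

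Of the 6 members that passed the filter, BOLA-DRA and the second brightest BOLA-DQB1 probe set had all 8 LD arrays at T12 above all 8 at T0. Among all tested probe sets 2.5% (391) did so. Both also had all 16 T12 arrays, of every muscle, above the 8 T0 arrays, which 1.07% (167) of tested probe sets did. As the members were picked with this age difference known, nothing is read from these shares.

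The other genes of the class II pathway were taken from a list, and their age difference was tested with limma, with Benjamini-Hochberg adjustment over all tested probe sets. The list held 30 genes, of which 19 were on the array and 16 were tested. With age, 4 rose and 0 fell, and the list's median log2 difference was 0.50, with 13 of 16 positive. Of all tested probe sets 5.89% rose and 5.79% fell, with a median of 0.06. All 4 that rose encode antigen chains or their loading partner. BOLA-DRB3, the beta chain of the DR antigen, rose by 2.24 ± 0.27 (SE, adjusted p = 8e-04, limma). The probe set that read it is, by its suffix, of the same s type as the brightest of BOLA-DQB1. Another tested probe set of BOLA-DRB3, not of this type, had r = 0.86 with BOLA-DRA over the 12 groups and 0.69 at T12. The s type one had 0.98 and 0.91. BOLA-DQA2, an alpha chain of the DQ antigen, rose by 2.34 ± 0.31 (adjusted p = 0.00134, limma) by its brightest probe set. A dimmer tested probe set of BOLA-DQA2 had r = 0.24 with BOLA-DRA over the 12 groups, against 0.97 for its others. BOLA-DQA1, another DQ alpha chain, rose by 1.74 ± 0.36 (adjusted p = 0.0104, limma). BOLA-DMA, a chain of the DM protein that helps load peptides onto class II antigens, rose by 1.70 ± 0.44 (adjusted p = 0.0302, limma). BOLA-DMA was the least firm of them, since its T0 signal ranged from 2.9 to 54.4. It passed in 19 of 24 fits made without 1 of the arrays, and its highest adjusted p was 0.142, without the first NN array at T0.

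The age difference of these 4 genes was positive in each LD genotype. They were called on the mean of CC, NC and NN, so the sign in those genotypes is tied to the call, and only CN lay outside it. BOLA-DRB3 differed by 2.79 in CN, 1.63 in CC, 2.31 in NC and 2.79 in NN on the log2 scale. BOLA-DQA2 differed by 2.38 in CN, 1.82 in CC, 2.50 in NC and 2.69 in NN. BOLA-DQA1 spanned 1.42 to 2.13, and BOLA-DMA 0.49, in CC, to 2.70, in NN. CC had the smallest age difference of the 4 genotypes for BOLA-DRB3, BOLA-DQA2 and BOLA-DMA. It also did for BOLA-DRA and the brightest BOLA-DQB1 probe set. For BOLA-DRA, CC at 2.20 lay close to NC at 2.24, with an SD between technical arrays of 0.37. Other BOLA-DQB1 probe sets did not share this order. The second brightest had its smallest age difference in CN, at 1.19, against 2.11 in CC. The brightest of the dim ones had its largest in CC, at 2.68. Whether these differences differ between genotypes was not tested, as each genotype gave 1 value per age.

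Genes that cut proteins and peptides for class II antigens, and the factors that bind class II promoters, did not pass the test. CTSS, the protease that trims the invariant chain, was at 0.49 ± 0.21 (adjusted p = 0.167, limma). IFI30, a reductase of the lysosome, was at 0.51 ± 0.27, and LGMN, a lysosomal protease, at 0.08 ± 0.29. RFX5 was at 0.34 ± 0.31 and RFXANK at −0.22 ± 0.16, both subunits of the RFX complex that binds class II promoters. The NF-Y subunits NFYB and NFYC, bright on every array, were at 0.32 ± 0.12 and −0.46 ± 0.15, and NFYA was at −0.87 ± 0.52. CREB1, which also binds class II promoters, was at 0.13 ± 0.23. BOLA-DMB, the partner of BOLA-DMA, was at 1.24 ± 0.41 (adjusted p = 0.0784, limma) and BOLA-DOA, a chain of the DO protein that restrains DM, at 0.83 ± 0.43. BOLA-DQA5, another DQ alpha chain, was at 1.46 ± 0.71 (adjusted p = 0.22, limma). The invariant chain gene CD74 and the master regulator CIITA were not analysed here, as neither had a probe set of its own symbol.

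**Figure D2:**
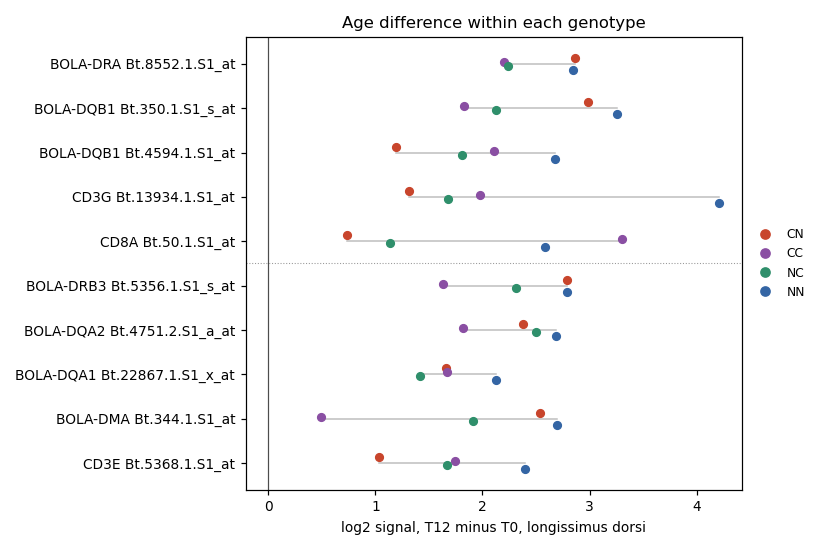
Log2 signal at T12 minus T0 in longissimus dorsi within each genotype, 1 point per genotype, for 5 member probe sets (above the dotted line) and for 5 genes of the class II and T cell lists that passed the age test (below it). PRKCQ, which also passed, is not drawn. All points lie right of 0, but the members were picked with this difference known and the other genes were called on it in CC, NC and NN. The genotypes span 2.20 to 2.86 for BOLA-DRA and 1.31 to 4.21 for CD3G.

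The brightest BOLA-DQB1 probe set had its highest signal in CC lambs at both ages. CC exceeded NN by 1.41 at T12 and 2.84 at T0 on the log2 scale, or 2.12 ± 0.32 (SE) with age in the model. Both CC arrays lay above the other 6 LD arrays at T12 and at T0. Of all tested probe sets, 4.4% had CC arrays that stood above the others in this way at T12, 5.66% at T0 and 0.249% (39) at both ages. NC exceeded NN by 0.16 at T12, where the arrays overlapped, and by 1.29 at T0, with no overlap. CN exceeded NN by 0.57 at T12 and by 0.83 at T0, with no overlap at either age. NN thus had the lowest signal of the 4 genotypes at T0, and at T12 its arrays overlapped only those of NC.

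BOLA-DRA did not share this order. The log2 difference of CC and NN was 0.08 ± 0.26 (SE) and that of NC and NN −0.28 ± 0.26. The second brightest BOLA-DQB1 probe set differed between CC and NN by 0.43 on the log2 scale, with a range of 0.12 to 0.74 over the alternative settings. BOLA-DQA1, the alpha chain gene whose product pairs with a DQ beta chain, had a CC excess over NN of 0.98 at T12 and 1.44 at T0 for its brighter probe set, and of 0.55 at T12 and 0.87 at T0 for its other one. In the model with age, the brighter probe set differed by 1.21 ± 0.27 (adjusted p = 0.442, limma), which did not pass the test. Of all probe sets, 0.0128% (2) passed it for CC and NN.

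BOLA-DQA2 ran the other way, with its highest signal in NN. Its brightest probe set read 245.2 and 359.2 in LD of CN, 471.4 and 308.9 in CC, 470.0 and 347.4 in NC, and 863.2 and 886.0 in NN at T12. In SS it read 275.4 and 289.8 in CN and 613.2 and 530.0 in NN, and in SM and ST of NN it lay between 852.1 and 1124.0. All 8 NN arrays at T12 therefore lay above the 8 T12 arrays of CN, CC and NC, and the same held for a second probe set of BOLA-DQA2. Among tested probe sets 0.128% (20) separated in this way, as did 2 of 22 class II pathway probe sets and 0 of the 6 members. With LD and SS alone, which were both arrayed in another genotype, the share was 0.485% and the count 3 of 22, BOLA-DMA being the added one. At T0, NN read 125.4 and 147.2 and the other genotypes 45.0 to 136.8, so the groups overlapped. The dimmest BOLA-DQA2 probe set did not share the pattern. In the fitted contrasts the brightest probe set differed by −0.77 ± 0.24 (SE, adjusted p = 0.822, limma) between CC and NN and by −1.02 ± 0.24 (adjusted p = 0.915, limma) between NC and NN in LD, and by −1.01 ± 0.54 (adjusted p = 1.0, limma) between CN and NN in SS. None of the 3 passed. This gene was singled out after its values were seen.

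**Figure D3:**
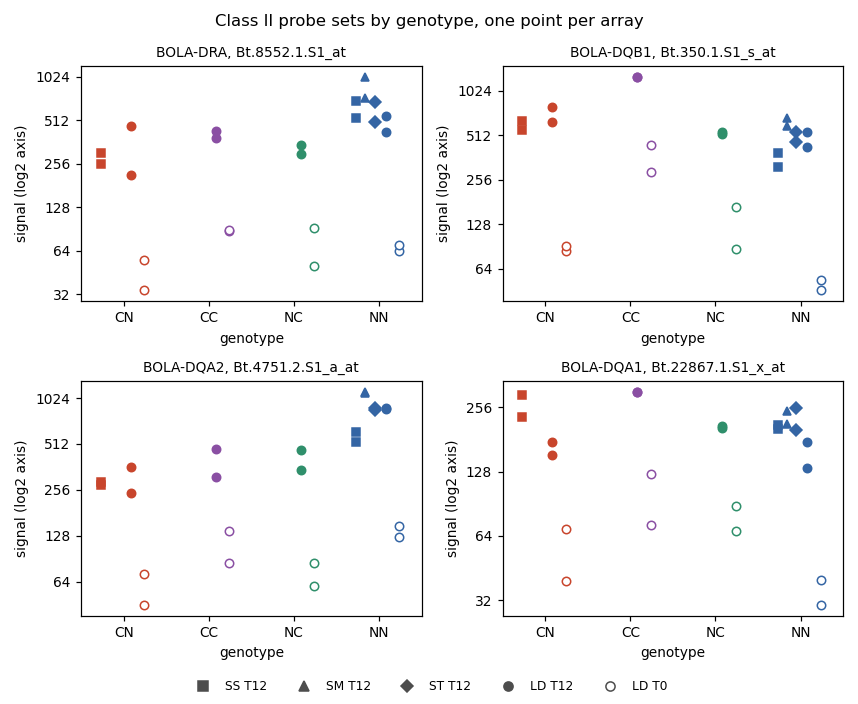
Signal of BOLA-DRA, BOLA-DQB1, BOLA-DQA2 and BOLA-DQA1, each by its brightest probe set, by genotype on a log2 axis, with 1 point per array, filled at T12 and open at T0, and the shape giving the muscle. The BOLA-DQB1 signal is highest in CC, at 1260.4 and 1262.5 at T12, and BOLA-DQA2 in NN, at 530.0 to 1124.0 at T12 against 245.2 to 471.4 in the other genotypes.

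Set against CC, NC and NN in LD, CN lambs, which carry the trait, had no common direction in the members. BOLA-DRA differed by −0.33 ± 0.27 (SE) at T12 and −0.76 ± 0.27 at T0 on the log2 scale, and the T12 value turned to 0.22 without the second CN array. The brightest BOLA-DQB1 probe set differed by 0.05 ± 0.82 at T12 and −0.55 ± 0.82 at T0, where it was at 0.83 against NN alone. The second brightest differed by −0.40 ± 0.42 at T12 and 0.61 ± 0.42 at T0. No gene of the class II pathway or T cell lists passed the test in this contrast at either age, where 0.179% of tested probe sets passed at T12 and 0.172% at T0. In the same contrast at unadjusted p under 0.05 limma had 1562 probe sets at T12 and 1825 at T0. The class II list had a median log2 difference of −0.29 at T12, with 12 of 16 negative, beside −0.06 over all tested probe sets.

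Most tested markers of macrophages and dendritic cells were lower in LD of CN at T12. IRF8, a transcription factor of dendritic cells and macrophages, read 35.2 and 39.5 in LD of CN at T12, against 187.9 to 282.8 in CC, NC and NN. It fell by 2.58 ± 0.30 (SE, adjusted p = 0.0239, limma) and was the 1 called gene of that list, whose median was −0.28 with 22 of 25 negative. The call was lost without the first CC array at T0 (adjusted p = 0.0586), with NN alone as comparator (0.111) and without an intensity trend in the fit. In SS at T12 the IRF8 arrays overlapped, at 145.2 and 364.7 in CN and 214.5 and 172.5 in NN. In LD of CN at T0 IRF8 read 26.7 and 155.3. At T0 the list's median was 0.01, with 12 of 25 negative. The summed signal of the list's 30 genes on the array at T12 was 1820 and 2074 in LD of CN and 2435 to 2966 in CC, NC and NN, and without IRF8 it was 1781 and 2039 in CN and 2189 to 2698 in the others. The other lists leaned lower too in LD of CN at T12, each with more negative than positive genes. The interferon list, of induced genes and some receptor and kinase genes, had a median of −0.48 with 15 of 19 negative. The class I pathway had −0.18 with 11 of 14 negative. Whether the macrophage and dendritic cell list differed from the others was not tested. The part of these cells in the members' CN values was not tested either. In the same contrast the slow fibre genes TNNT1 and MYH7 were called at −0.97 and −0.89 (adjusted p = 0.0371 and 0.0493, limma), and in 17 and 7 of 24 fits without 1 array.

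In SS, BOLA-DRA was lower in CN lambs. It read 305.4 and 256.4 in CN, against 533.4 and 694.8 in NN, and the arrays did not overlap. The log2 difference was −1.12 ± 0.33 (SE), and it stayed between −1.31 and −0.93 over the alternative settings. The second brightest BOLA-DQB1 probe set read 64.5 and 56.0 in CN and 108.5 and 168.0 in NN, a difference of −1.17 ± 0.52. The brightest was higher in CN, at 641.9 and 556.6, against 313.2 and 389.7 in NN, a difference of 0.77 ± 1.01. These probe sets of class II genes therefore differed in opposite directions between the same 2 groups. The macrophage and dendritic cell sum was 2486 and 2522 in CN and 2583 and 2769 in NN. Each SE borrows its spread from LD, as SS had 1 value per genotype. In this contrast 0 of the tested probe sets passed (0.0%), with 656 at unadjusted p under 0.05 by limma.

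Among NN muscles at T12, BOLA-DRA was highest in SM, at 728.1 and 1020.9. SS read 533.4 and 694.8, ST 502.3 and 682.6, and LD 549.3 and 425.1. The SM arrays lay above all the others, whereas SS, ST and LD overlapped. Within NN the log2 difference from LD was 0.84 in SM, 0.28 in ST and 0.33 in SS. Against LD of CC, NC and NN, which mixes muscle with genotype, the mean of SM and ST was higher by 0.84 ± 0.21 (SE) and SS by 0.61 ± 0.27. The macrophage and dendritic cell sum was also highest in SM, at 3142 and 3204, with 2821 and 3018 in ST, 2583 and 2769 in SS, and 2472 and 2613 in LD of NN, and its part in the BOLA-DRA signal was not tested. The second brightest BOLA-DQB1 probe set read 205.5 and 229.6 in SM, 129.8 and 173.3 in ST, 108.5 and 168.0 in SS, and 60.8 and 109.1 in LD of NN. It was the only member whose SM and ST arrays all exceeded every LD array at T12, as 0.881% (138) of tested probe sets did, and its difference from LD of CC, NC and NN was 1.16 ± 0.33. Within NN the difference was 1.42 in SM, 0.88 in ST and 0.73 in SS, where the arrays overlapped those of LD. The brightest BOLA-DQB1 probe set did not share this order, with 587.6 and 668.0 in SM, 462.6 and 540.2 in ST, 313.2 and 389.7 in SS, and 533.3 and 422.9 in LD of NN. Within NN it differed from LD by 0.40 in SM and −0.44 in SS, with no overlap of arrays, and by 0.07 in ST, with overlap. Against LD of CC, NC and NN, which holds the high CC value, the direction for SM and ST turned, at −0.29 ± 0.65, and SS was at −0.97 ± 0.82. No gene of the class II pathway list passed the muscle tests, in which 0.0447% of tested probe sets passed for SM and ST against LD, 2.96% for SS against LD and 0.996% for SS against SM and ST. Of the other lists CYBB, an oxidase subunit of phagocytes, was called in SS against LD, at 1.12 (adjusted p = 0.0352, limma), and it passed in 17 of 24 fits without 1 array, with 0.64 (0.18) without the second SS array of NN. IRF7, a factor of the interferon response, was called in SS against LD at −3.04 and against SM and ST at −2.81, but it read 68.3 and 2.1 on the SS arrays of NN, and without the second it was at −0.53 and −0.30 (adjusted p = 0.424 and 0.742, limma). The fibre genes TNNT3, TNNI2 and PYGM were called in SS against LD at −0.58, −0.49 and −0.68, and TNNT1 at 0.68.

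CD3G lay near or under the array median. In LD at T12 it read 57.9 and 43.6 in CN, 17.4 and 62.7 in CC, 55.5 and 53.6 in NC, and 80.3 and 74.4 in NN. In LD at T0 it read 20.5 and 19.9 in CN, 14.3 and 4.9 in CC, 13.9 and 20.8 in NC, and 9.7 and 1.8 in NN. Within every genotype the T12 arrays lay above the T0 arrays, while across genotypes 17.4 in CC at T12 fell below 20.8 in NC at T0. The log2 difference was 1.31 in CN, 1.98 in CC, 1.68 in NC and 4.21 in NN, and 2.62 ± 0.58 (SE) over CC, NC and NN. With 16 added to each signal before log2 the last value was 1.41, so its size depends on how signals this dim are treated. CD3G exceeded the array's own median on 8 of the 16 T12 arrays and on 0 of the 8 T0 arrays. In the other muscles it read 56.3 and 79.7 in SS of CN, 70.0 and 44.3 in SS of NN, 50.9 and 51.4 in SM, and 72.0 and 35.5 in ST. Both LD arrays of NN, at 80.3 and 74.4, lay above the SS, SM and ST arrays of NN, which differed from LD by −0.47, −0.60 and −0.61 on the log2 scale. SS, SM and ST of NN overlapped among themselves, and in CN the SS and LD arrays overlapped.

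CD8A was as dim. In LD at T12 it read 67.1 and 42.2 in CN, 31.6 and 76.5 in CC, 19.7 and 46.4 in NC, and 51.3 and 61.3 in NN. In LD at T0 it read 37.6 and 27.2 in CN, 13.9 and 1.8 in CC, 8.6 and 21.9 in NC, and 6.1 and 14.5 in NN. The ages overlapped in NC, where 19.7 at T12 lay under 21.9 at T0, and did not overlap in the other genotypes. The log2 difference was 0.73 in CN, 3.30 in CC, 1.14 in NC and 2.58 in NN, and 2.34 ± 0.51 (SE) over CC, NC and NN, or 1.21 with 16 added to each signal. CN had the highest CD8A signal of the genotypes at T0, with a log2 difference of 1.89 ± 0.72 from CC, NC and NN, against 0.28 ± 0.72 at T12. The SD between technical arrays was 0.83 for CD8A and 0.76 for CD3G on the log2 scale. In the other muscles CD8A read 54.7 and 44.1 in SS of CN, 63.1 and 54.8 in SS of NN, 53.5 and 86.5 in SM, and 41.5 and 44.7 in ST.

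Of 59 other T cell genes on a list, 30 were on the array and 18 were tested. With age in LD 2 of them rose, as did 5.89% of all tested probe sets. CD3E, another chain of the CD3 complex, read 104.8 to 253.3 on LD arrays at T12 and 13.9 to 96.1 at T0. It rose by 1.94 ± 0.28 (SE, adjusted p = 0.00198, limma), and was highest in NN at T12, at 237.9 and 253.3. PRKCQ, a kinase that acts below the T cell receptor and is also abundant in skeletal muscle fibres, rose by 2.02 ± 0.15 (adjusted p = 8.78e-05, limma). The list's median log2 difference was 0.26, with 14 of 18 positive. The other defining T cell genes did not pass: CD3D was at −0.23, CD2 at −0.01, CD247 at −0.54, CD4 at 0.62 and LCK at 0.58 on the log2 scale. The remaining 11 tested genes, TCRA, LAT, CD6, CTLA4, SH2D2A, IL2RG, TCF7, LEF1, CD96, PTPRCAP and CXCR3, lay between −0.21 and 0.87 and did not pass. CD8B, which encodes the partner chain of CD8A, CD5, CD28 and ZAP70 did not pass the filter, and none of them exceeded the array median on any array. The summed signal of the 30 T cell genes was 1389 to 1977 on LD arrays at T12 and 927.8 to 1186 at T0. PRKCQ alone read 376.6 to 614.5 at T12 and 101.4 to 156.7 at T0. Without PRKCQ the sum overlapped between ages over all genotypes, at 1012 to 1431 at T12 and 817.6 to 1071 at T0. In CC, NC and NN, which the age test used, it did not overlap, at 1085 to 1431 at T12 and 817.6 to 1071 at T0. Within each genotype, CN included, the T12 arrays also lay above the T0 arrays for this sum.

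Lists of other leukocytes had few genes past the age test, in which 5.89% of all tested probe sets rose and 5.79% fell. No excess or lack is read from such small counts. Of 25 macrophage and dendritic cell genes tested, AIF1, found in macrophages, rose by 0.72 and TLR4, a receptor for bacterial lipopolysaccharide, by 1.64 (adjusted p = 0.025 and 0.0335, limma), and with NN alone as comparator these were at 0.153 and 0.554. CD14, CD68 and CSF1R, which mark monocytes and macrophages, were at −0.14, 0.35 and −0.09 and did not pass. The summed signal of the 30 macrophage and dendritic cell genes on the array overlapped between ages over all 4 genotypes, at 1820 to 2966 at T12 and 1910 to 2237 at T0. In CC, NC and NN, which the age test used, it did not overlap, at 2435 to 2966 at T12 and 1910 to 2237 at T0. LGALS3, AIF1 and IRF8 were its brightest genes. Of 14 pan-leukocyte genes tested, LCP1, an actin-bundling protein, rose by 1.20 (adjusted p = 0.0245, limma, and 0.359 with NN alone), and CORO1A was at 1.15 (adjusted p = 0.0516, limma). PTPRC, which encodes the leukocyte antigen CD45, read 10.6 to 61.7 on LD arrays at T12 and 6.1 to 37.3 at T0 and did not pass the filter. LAPTM5 and RAC2, the other two of the brightest in that list, did not pass. The pan-leukocyte sum was 1106 to 1664 at T12 and 1002 to 1336 at T0. None of the 4 cytotoxic and natural killer, 5 B and plasma cell and 3 granulocyte and mast cell genes tested passed, though 2, 1 and 0 of them had an unadjusted p under 0.05. The cytotoxic and natural killer sum was nonetheless 454.5 to 577.8 at T12 and 201.4 to 373.0 at T0, over 18 genes, none of which exceeded the array median on every T0 array. The brightest genes were TYROBP, NCR1 and CTSW among cytotoxic and natural killer genes, JCHAIN, IGHM and MZB1 among B and plasma cell genes, and KIT, S100A8 and MPO among granulocyte and mast cell genes. TYROBP is on the macrophage and dendritic cell list as well, so the cytotoxic and natural killer sum is not of those cells alone. MS4A1 and CD79A, which define B cells, read at most 40.6 and 43.1 on LD arrays, and no gene of these lists read 1 or less on every array. The part of any cell type in the age difference of the class II genes was not tested.

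The age test called 5.89% of all tested probe sets higher and 5.79% lower. Genes of the class I pathway, which presents peptides to CD8 T cells, changed in both directions. Of 14 tested, 4 rose: B2M, the light chain of class I antigens, by 0.84, the peptide transporter subunit TAP2 by 0.55, and the immunoproteasome subunits PSMB8 and PSMB9 by 0.62 and 0.50. The 3 that fell were the endoplasmic reticulum proteins CALR, at −0.91, and PDIA3, at −0.62, and the proteasome activator PSME1, at −0.37. TAP2, PSMB8, PSMB9 and PSME1 were near the threshold (adjusted p = 0.0485, 0.0494, 0.0399 and 0.0492, limma) and passed in 14, 15, 17 and 14 of 24 fits without 1 array. B2M was the brightest of those that rose, at 2480.0 to 4011.9 at T12 and 1485.0 to 2397.5 at T0 in LD (adjusted p = 0.00144, limma). Of 19 genes tested on the interferon list, IFI16 rose by 1.90, IFI27 by 0.98 and JAK1, a kinase of interferon receptors, by 0.53. They passed in 18, 17 and 17 of the 24 fits, whereas IFIT5, the brightest, did not pass. Of 15 genes of leukocyte recruitment, ITGB1, an integrin chain also made by muscle, was called and was at −0.37, while PECAM1 and CCL21, next in brightness, did not pass. Of the muscle fibre genes, MB, which encodes myoglobin, rose by 0.79 and LDB3, a protein of the Z-disc, by 0.72 (adjusted p = 0.00267 and 0.00166, limma).

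**Figure D4:**
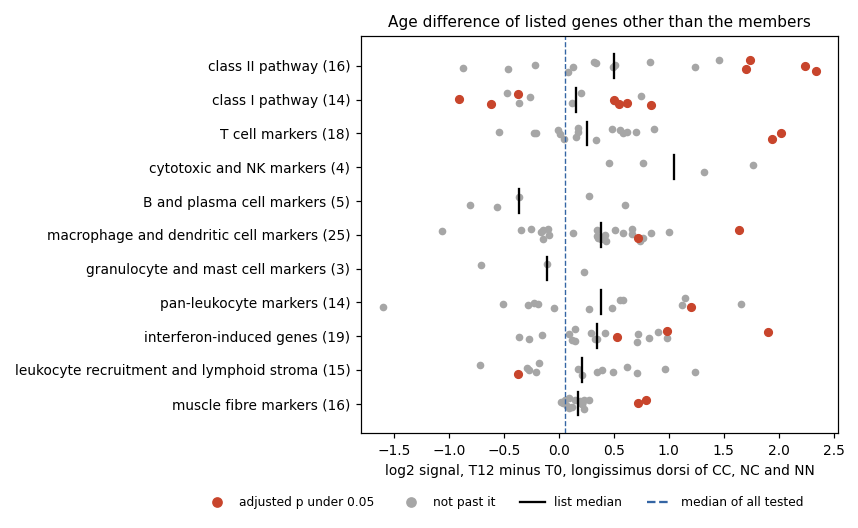
Log2 signal at T12 minus T0 over CC, NC and NN in longissimus dorsi for the tested genes of 11 lists, with the number tested in brackets, 1 point per gene, red where limma's adjusted p was under 0.05, a black line at each list's median and a dashed line at the median of all tested probe sets (0.06). The class II list has a median of 0.50 with 4 genes past the test, and the T cell list a median of 0.26 with 2. Vertical spread within a list has no meaning.

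A measure of RNA quality, the 3′ to 5′ signal ratio of GAPDH, differed between some of these groups. The log2 ratio of 3′ to 5′ signal of GAPDH was −0.033 to 0.246 on LD arrays at T12 and 0.131 to 0.307 at T0. At T12 in LD it was −0.033 and 0.085 in CN, 0.066 and 0.043 in CC, 0.246 and 0.195 in NC, and 0.187 and 0.246 in NN. For actin the log2 ratio was 0.031 to 0.294 on LD arrays at T12 and −0.07 to 0.223 at T0. At T12 in LD it was 0.047 and 0.036 in CN, 0.093 and 0.115 in CC, 0.294 and 0.031 in NC, and 0.203 and 0.037 in NN. NC and NN thus lay above CN and CC at T12 for GAPDH and overlapped them for actin. The part of RNA quality in the age and genotype differences was not tested.

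The members' group values were compared over all 12 groups, and again over the 8 groups at T12, since the first of these correlations contains the age difference. BOLA-DRA and the second brightest BOLA-DQB1 probe set kept a Pearson r of 0.96 at T12, with 0.95 over all groups. BOLA-DRA and the brightest BOLA-DQB1 probe set had r = 0.80 over all groups and −0.28 at T12. CD3G and CD8A had r = 0.88 over all groups and 0.08 at T12, and CD3G and CD3E had 0.82 and 0.21. BOLA-DRA and CD3E had 0.91 and 0.73.

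The genes most like each member over the 12 groups were BOLA-DRB3 (r = 0.981), BOLA-DQA2 (0.968), MAOB (0.956), BOLA-DMA (0.945) and EPAS1 (0.944) for BOLA-DRA. At T12 alone these were 0.91, 0.90, 0.80, 0.83 and 0.71. For BOLA-DQB1 they were ACAD11 (0.955), BOLA-DQA1 (0.94), FBXL4 (0.936), MBP (0.936) and AFTPH (0.931), with 0.89, 0.53, 0.62, 0.71 and 0.52 at T12 alone. For CD3G they were ARMC8 (0.96), LRRC20 (0.945), CYP4B1 (0.944), ZNF148 (0.939) and ZFAND5 (0.939), with 0.60, 0.13, 0.26, 0.59 and 0.34 at T12 alone. For CD8A they were ARHGEF4 (0.946), FAR1 (0.926), ATMIN (0.918), FUNDC2 (0.912) and U2SURP (0.911), with 0.40, 0.80, 0.89, 0.37 and 0.48 at T12 alone. No class II or T cell gene of the lists was among the 5 for CD3G or CD8A. All of these are descriptions over groups that share arrays and ages.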

How the data were processed

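Bovine GeneChip arrays of sheep muscle RNA, each made from 5 µg of total RNA per the labels' protocols, were analysed from the deposited series table. Its values are linear signal intensity per probe set, made by the authors with MAS5, per the submitters' processing notes. No version is given for MAS5. The 2% trimmed mean of each array was 200.08 to 200.093, which shows the deposited intensity to be scaled alike on all arrays. No detection calls were used. Signals under 1 (4295 of 579072) were set to 1, log2 was taken, and the 2 technical arrays of a group were averaged. Their log2 values correlated with r of 0.974 to 0.988 above a mean of 8, and no more than 0.333% of values were equal within a pair.

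Gene symbols came from the platform table: 13292 probe sets had 1 symbol, 86 several and 10750 none, and a gene was read by its brightest probe set. Tests covered 15664 probe sets that exceeded a signal of 49.72, the median, in at least 1 group, without the 112 controls. Tests used limma 3.58.1 in R 4.3.3 (lmFit and trended eBayes; two-sided p adjusted by Benjamini-Hochberg, threshold 0.05). The 12 group values were fitted in 8 cells, with CC, NC and NN of LD as 3 values of a cell at each age (4 residual degrees of freedom, prior 6.88). CC and NC were set against NN in a model of the 8 LD values that held age as a term (residual degrees of freedom 3, prior 7.14). A cell of 1 value is taken to vary as LD does. The p-values measure the spread between group values, and the number of arrays limits the precision. The limma step was tested on simulated data.

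The members and the 11 gene lists (341 genes, 217 on the array, 148 tested) were chosen with earlier results of these data known. The text names every member, the called genes and the 3 brightest genes of each list, the tested genes of the class II and T cell lists, and the 5 genes most correlated with each member. BOLA-DQA2 was singled out after its values were seen. Replicate numbers were not taken to pair samples. Deviations from the group means of arrays with the same number correlated with r from −0.411 to 0.544, with a median of 0.094. Of 66 pairs 33 were above 0.1, and these values do not settle whether the numbers mark a link between arrays. Alternatives were quantile scaling, adding 16 to the signal, no filter, no intensity trend, NN alone as comparator, each array left out, and all arrays with a replicate block.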

Additional observations from a re-analysis of the deposited data

Results flagged for a closer look

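3 member probe sets moved in opposite directions in a pair of groups, with both arrays of a genotype on 1 side of both NN arrays in the first and on the other side in the second. None of these differences was tested, and with 2 arrays each such separations also arise by chance. The share of all tested probe sets with such a pattern was not counted, so nothing is read from the number of members. For CD3G, CN minus NN in LD was −0.62 at T12 and 2.27 at T0, which differ by 2.89 on the log2 scale. Likewise NC minus NN for CD3G was −0.50 at T12 and 2.02 at T0, which differ by 2.53. The NN arrays at T0 read 9.7 and 1.8, the dimmest pair of CD3G. For CD8A, CN minus NN was −0.26 in SS at T12 and 1.77 in LD at T0, which differ by 2.03. The SS arrays of CD8A barely separated, at 54.7 and 44.1 in CN and 63.1 and 54.8 in NN, with a technical SD of 0.83 on the log2 scale. For the second brightest BOLA-DQB1 probe set, CN minus NN was −1.17 in SS at T12 and 1.08 in LD at T0, which differ by 2.25. Its NN arrays at T0 read 8.3 and 19.5.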

How the results depend on the processing

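Some small differences of the members turned direction. Without 1 array, CN against CC, NC and NN at T12 turned to 0.22 for BOLA-DRA and −0.12 for the brightest BOLA-DQB1 probe set, and CC against NN to −0.02 for BOLA-DRA. With NN alone as comparator, CN was at 0.83 at T0 for that BOLA-DQB1 probe set and at −0.08 at T12 for CD8A. The called list genes kept their sign. The age difference in LD kept its sign under all 28 alternatives, at 2.20 to 2.85 for BOLA-DRA, 2.22 to 3.26 for the brightest BOLA-DQB1 probe set, 1.46 to 2.68 for the second brightest, 1.41 to 4.21 for CD3G and 1.21 to 2.83 for CD8A. The CC excess of the brightest BOLA-DQB1 probe set over NN kept to 1.94 to 2.27. The numbers of probe sets past the threshold were less stable. Without an intensity trend the count for T12 against T0 was 227, in place of 1830, and the class II list kept 1 gene, BOLA-DRB3 (adjusted p = 0.0434, limma), while BOLA-DQA2 was at 0.0511 and BOLA-DQA1 at 0.0883. CD3E (0.0455) and PRKCQ (0.0275) still passed. The same setting gave 0 for CN in LD at T12 and at T0, 4 for SS against SM and ST, 86 for SS against LD, and 0 for SM and ST against LD, for CC and for NC. NN alone as comparator gave 241 for age, 3 for CN at T12 and 0 for CN at T0. Quantile scaling gave 11 for CN at T12 and 7 at T0, and no filter gave 11 for CN at T12 and 4 for CC. Adding 16 gave 76 for CN at T0 and 2 for the interaction of CN and age, which otherwise had 0 (1392 at unadjusted p under 0.05 by limma). With the replicate block, replicate numbers enter although they were not taken to pair samples. All 24 arrays were fitted, with a fitted correlation within groups of 0.037, or 0.102 in the LD model. The technical arrays of a group thus counted almost as separate replicates, which they are not. The counts under this block were 246 for CN at T12, 560 for CN at T0, 2848 for age, 146 for the interaction, 3 for CN in SS, 511 for SS against SM and ST, 1135 for SS against LD, 88 for SM and ST against LD, 44 for CC and 7 for NC. Leaving out each array in turn gave 1 to 422 for CN at T12 (main count 28, with 220 and 422 without the first and second CN array and 1 without the first CC array at T0) and 3 to 270 for CN at T0 (27, with 270 and 251 without a CN array). It gave 1220 to 1906 for age, 0 to 44 for the interaction, 0 to 12 for CN in SS, 88 to 279 for SS against SM and ST, 280 to 754 for SS against LD, 4 to 23 for SM and ST against LD, 2 to 4 for CC and 2 to 2 for NC. Of 416 counts of called list genes under alternatives 79 were lower and 9 higher by over 1.5 times, and of 953 differences of called list genes 193 lost the threshold. The cause of these changes was not tested. CD3G, CD8A and the 3 dim BOLA-DQB1 probe sets had SDs between technical arrays of 0.76 to 1.64 on the log2 scale, which limits the precision of their differences.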
